A study of Mus musculus with 10 samples.

Results

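The Rab GTPases, with the proteins that switch them on and off, were followed in leukemic mouse spleens labelled Sirt1 deleted and in Control spleens. Members were chosen by gene symbol: the numbered Rab genes, the Tbc1d genes with Rabgap1 and Rabgap1l, and the Dennd genes. Of 105 matching symbols, 94 had a value of 10 or more in at least 5 of the 10 libraries and are described here, out of 16865 genes in the deposited table. They comprised 51 of 59 Rab GTPases, 30 of 32 genes of TBC proteins and 13 of 14 genes of DENN proteins. The TBC and DENN genes together are called the 43 regulators. The choice used the level of each gene in all libraries and, for Rabgap1, its low level in the Sirt1 deleted group, so Rabgap1 is described without a test.

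The Sirt1 deleted group held 5 libraries and the Control group held 5, each made from bulk RNA of a leukemic spleen of strain C57BL/6. In both groups, mice irradiated at a sub-lethal dose had received by vein T-ALL (T cell acute lymphoblastic leukemia) carrying a conditional knockout of Sirt1, which encodes a NAD-dependent deacetylase. Mice of the Sirt1 deleted group were then given tamoxifen by intraperitoneal injection, 3 mg per mouse in corn oil, and mice of the Control group were given corn oil alone. Deletion and tamoxifen cannot be told apart, because no group had tamoxifen without deletion. The labels do not name the Cre driver, the time of sampling, the age of the mice or how many separate leukemias were injected. The p-values therefore measure the spread between these libraries, which may be partly technical.

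Rab proteins are small GTPases that sit on membranes and give each compartment of the secretory and endocytic routes its identity. A Rab is switched on when an exchange factor loads it with GTP, and many exchange factors share the DENN domain. It is switched off when a GTPase-activating protein (GAP), usually with a TBC domain, makes it hydrolyze GTP. T cells depend on this cycle to recycle antigen receptors to the contact with another cell and to secrete their granules.

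All values are the authors' normalized counts, and differences are on the scale of log2(value + 1), Sirt1 deleted minus Control. A gene was called higher or lower where limma gave an adjusted p under 0.05 over all 13567 genes tested. Estimated depth was 31700000 ± 8190000 reads in Sirt1 deleted libraries and 38400000 ± 6330000 reads in Control libraries (SD, n = 5 each). Sirt1 had 922, 824, 1071, 1061 and 710 in Sirt1 deleted libraries 1 to 5, against 1324, 1348, 1174, 1192 and 1126 in Control libraries 1 to 5. It averaged 918 ± 155 in Sirt1 deleted libraries and 1233 ± 97.6 in Control libraries, with no overlap (log2 difference -0.44, exact permutation p = 0.00794, two-sided, the smallest that 5 against 5 allows). The Sirt1 deleted mean was 74.4% of the Control mean. Corrected for transcript length and GC content, the Sirt1 log2 difference was -0.25, and it was -0.0006 with each library's length slope in the fit. In bulk spleen RNA, fewer cells of a type and less RNA per cell cannot be told apart. Summed markers of T cells spanned 164735 to 197527 in the Sirt1 deleted group and 156297 to 172314 in the Control group, and those of macrophages spanned 2937 to 5836 in the Sirt1 deleted group and 5700 to 9041 in the Control group. Summed erythroid markers spanned 163790 to 360161 in the Sirt1 deleted group and 333696 to 425111 in the Control group, and summed B cell markers spanned 321 to 533 in the Sirt1 deleted group and 241 to 327 in the Control group. Summed neutrophil markers spanned 1950 to 8446 in the Sirt1 deleted group and 1422 to 4083 in the Control group. No listed marker was at 0 in any library. By gene, 3 of 8 B cell, 2 of 8 neutrophil and 2 of 7 T cell markers were called higher, and 4 of 8 macrophage and 4 of 8 erythroid markers were called lower. The part of other cells in the results that follow was not tested, apart from the fit with B cell markers as a covariate.

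The starts of the genes that the results turn on are shown first, to place Rabgap1 and the most clearly changed GTPases in each direction. The sequences come from RefSeq on build GRCm38.p6, in lower case, 5′ to 3′ on the strand of the gene. Capitals mark matches to the CCAAT box (CCAAT or ATTGG), the GC box (GGGCGG or CCGCCC) and the E-box (CACGTG), searched on both strands. Rabgap1 shares a short divergent start region with Zbtb6 and Zbtb26, a pair of zinc finger genes on the other strand, and another RefSeq start lies further downstream. The 107 bases at chr2:37443172-37443278 (plus strand) lie between Zbtb6 and Rabgap1, and the 200 bases at chr2:37452054-37452253 precede that downstream start.
Rabgap1 upstream start: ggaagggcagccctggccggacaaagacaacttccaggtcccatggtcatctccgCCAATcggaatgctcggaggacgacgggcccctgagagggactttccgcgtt
Rabgap1 downstream start: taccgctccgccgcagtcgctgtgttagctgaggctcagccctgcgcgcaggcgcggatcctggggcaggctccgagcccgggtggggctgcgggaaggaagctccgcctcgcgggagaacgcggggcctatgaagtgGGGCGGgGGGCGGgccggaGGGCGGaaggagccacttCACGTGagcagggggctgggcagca
For Rab4b the 200 bases before the RefSeq start are chr7:27178884-27179083, and for Rab8b they are chr9:66919706-66919905, both on the minus strand.
Rab4b: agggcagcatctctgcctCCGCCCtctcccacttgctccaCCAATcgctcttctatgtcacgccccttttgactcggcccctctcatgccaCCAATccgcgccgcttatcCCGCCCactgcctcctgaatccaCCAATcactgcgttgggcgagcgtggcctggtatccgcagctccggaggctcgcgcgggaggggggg
Rab8b: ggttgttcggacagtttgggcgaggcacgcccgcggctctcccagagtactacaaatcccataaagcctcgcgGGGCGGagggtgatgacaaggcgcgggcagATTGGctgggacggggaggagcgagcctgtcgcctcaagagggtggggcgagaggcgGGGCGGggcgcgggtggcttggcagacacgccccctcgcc
The upstream start of Rabgap1 held 1 CCAAT box, and the downstream start held 3 GC boxes and 1 E-box. The Rab4b stretch held 3 CCAAT boxes and 2 GC boxes, and the Rab8b stretch held 1 CCAAT box and 2 GC boxes.

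RefSeq windows from 250 bases before to 50 after the start were matched for 78 of the 94 members. An E-box was present in 7 of 24 windows of TBC genes (29.2%), 1 of 12 of DENN genes (8.33%) and 5 of 42 of GTPase genes (11.9%), against 9.98% of the windows of all tested genes. A GC box was present in 69.2% of members' windows and 62.0% of all windows, and a CCAAT box in 37.2% of members' windows and 39.2% of all windows. The letters TGGGAA or TTCCCA, the core bound by the Notch partner RBPJ, were present in 23.1% of members' windows and 23.2% of all windows. A match is a description of the letters and not evidence of a bound site.

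The regulators and the GTPases differed in their counts. Among the 43 regulators, 21 were called lower in the Sirt1 deleted group (48.8%) and 4 higher (9.30%), with a median log2 difference of -0.23. Among the 51 GTPases, 5 were called lower and 5 higher (9.80% each), with a median of -0.0005. Over all genes tested, 17.5% were called lower and 14.5% higher, and 32.0% in either direction, with a median of 0.001. Without Rabgap1 the regulators still counted 20 lower and 4 higher of 42, with a median of -0.23. The split was seen in both regulator families, with 14 lower and 2 higher of 30 TBC genes (median -0.21) and 7 lower and 2 higher of 13 DENN genes (median -0.33). Without Rabgap1, 13 of 29 TBC genes were called lower (44.8%) and 2 higher, with a median of -0.19.

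**Figure D1:**
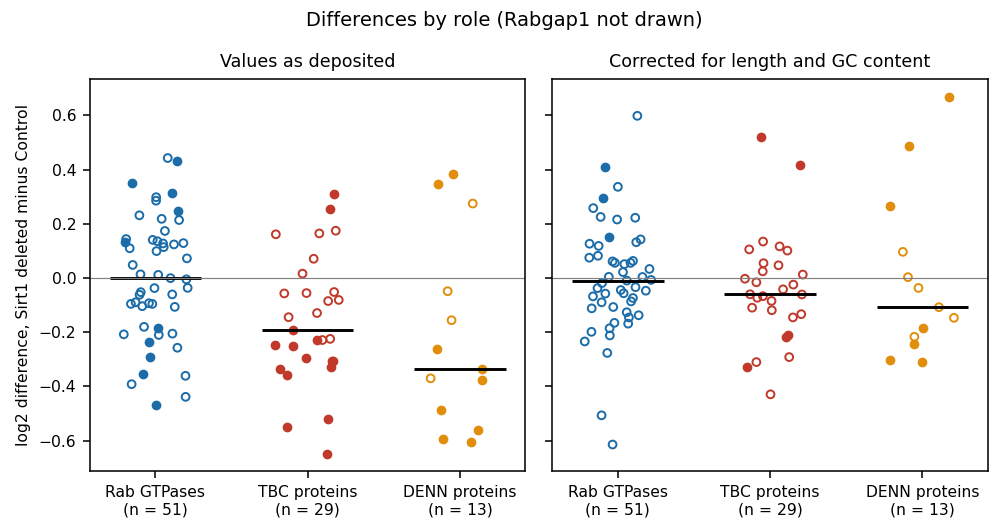
Log2 difference of each member (Sirt1 deleted minus Control, 5 libraries each) by role, as deposited on the left and after the correction for transcript length and GC content on the right; filled points passed an adjusted p of 0.05, open points did not, and black lines are medians. The left panel shows GTPases centred at -0.0005, TBC genes at -0.19 and DENN genes at -0.33. The right panel shows them at -0.01, -0.06 and -0.11. Rabgap1 is not drawn.

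Those counts went in part with transcript length. The median longest protein-coding transcript was 4967 bases for regulators and 2577 bases for GTPases. In each library, genes' deviations from their means sloped with log2 length, by -0.0981 ± 0.0862 in Sirt1 deleted libraries and 0.0981 ± 0.0615 in Control libraries (SD, n = 5 each, log2 per doubling of length). Among all tested genes of 4000 bases or more, 43.2% were called lower and 2.24% higher. Among regulators of that length, 17 of 29 were called lower (58.6%), Rabgap1 among them, and 2 higher. Among GTPases of that length, 2 of 13 were called lower and 1 higher. From 2000 to under 4000 bases, 4 of 11 regulators were called lower (36.4%) and 1 higher (9.09%), and 3 of 20 GTPases lower (15.0%) and 0 higher, against 8.70% lower and 9.66% higher of all genes. In the corrected fit 3 of those 11 regulators were lower (27.3%), 0 of those 20 GTPases and 4.97% of all genes of that length. At 4000 bases or more the corrected fit called 5 of 29 regulators lower (17.2%), Rabgap1 among them, and 4 higher (13.8%). It called 0 of 13 GTPases of that length lower and 2 higher, against 9.53% lower and 11.9% higher of all genes. As deposited, at under 2000 bases, 4 of 18 GTPases were called higher and 0 lower, and 1 of 3 regulators higher and 0 lower. Of all genes of that length 40.1% were called higher and 1.76% lower. In the corrected fit 0 of 3 regulators and 0 of 18 GTPases of that length were called. Of all genes of that length, that fit called 5.40% higher and 3.55% lower. Spearman's coefficient of the difference with length was -0.48 over the GTPases, -0.45 over the regulators and -0.61 over all tested genes with a length. These coefficients are across genes, which share the libraries, and carry no test.

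**Figure D2:**
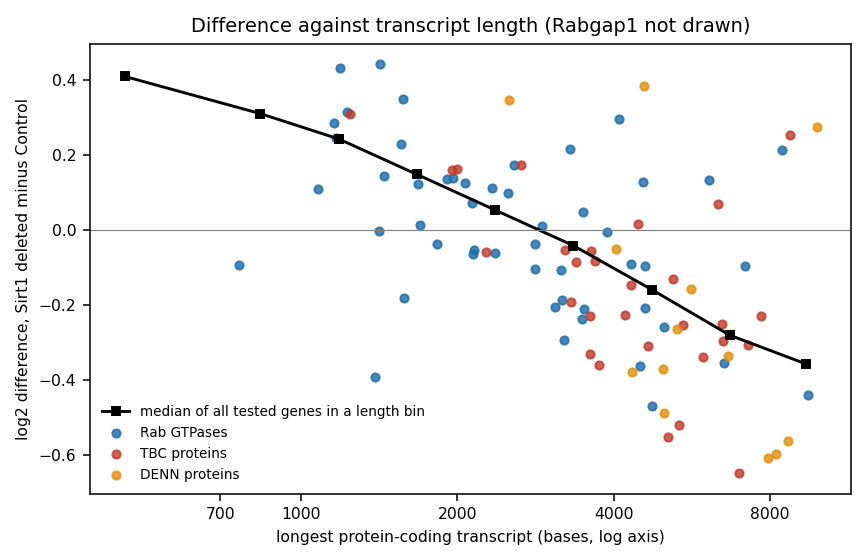
Log2 difference of each member (Sirt1 deleted minus Control) against the length of its longest protein-coding transcript in bases on a log axis; black squares are medians of all tested genes in bins of length. Members of all 3 roles lie around a line that falls with length, and regulators lie mostly at the long end. Rabgap1 is not drawn.

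A fit corrected for length and GC content called 8 regulators lower (18.6%) and 5 higher (11.6%). Over all 12397 tested genes of known length, which that fit used, 6.14% were lower and 8.49% higher. Without Rabgap1 it called 7 of 42 regulators lower (16.7%) and 5 higher (11.9%). Beside Rabgap1, the regulators called lower in it were Dennd1a, Dennd4a, Dennd4c, Dennd5a, Tbc1d13, Tbc1d15 and Tbc1d22b. Those called higher in it were Dennd1c, Dennd5b, Dennd6b, Rabgap1l and Tbc1d17. It called 3 GTPases higher (Rab8a, Rab11a and Rab11b) and 0 lower. In it, 5 of 51 GTPases were lower at an unadjusted p under 0.05, against 1896 of all 12397 genes. The median difference in that fit was -0.06 for the regulators and -0.01 for the GTPases. With the median-length transcript in place of the longest, 11 regulators were called lower (25.6%) and 3 higher (6.98%), where 12.6% of all genes were lower and 14.8% higher. Without Rabgap1 that fit called 10 of 42 regulators lower (23.8%) and 3 higher (7.14%). Dennd1c and Dennd6b stayed called higher with the median-length transcript. Dennd5b went from 0.67 (adjusted p = 0.0497) to 0.10 (adjusted p = 0.716). As deposited, Dennd5b was not called (0.27, adjusted p = 0.281). Rabgap1l (0.10, adjusted p = 0.21) and Tbc1d17 (0.07, adjusted p = 0.474) were not called with the median-length transcript. Nor were Rab11a (0.11, adjusted p = 0.0991) and Rab11b (0.02, adjusted p = 0.697), while Rab8a was. The median-length transcript can be far shorter than the longest. It has 643 bases against 8645 for Dennd4a, 1184 against 6515 for Rab18 and 833 against 4342 for Dennd1a. With it, 26.3% of genes of 4000 bases or more by longest transcript were still called lower, and 30.0% of those under 2000 bases higher. A call kept in that fit can therefore still run with length. Either correction takes out real differences too, if they run with length. A difference between the groups that follows length cannot be told apart from a property of the libraries.

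By library, the median deviation of the 43 regulators from their gene means was -0.0189, -0.141, -0.104, -0.0302 and -0.172 in Sirt1 deleted libraries 1 to 5. It was 0.169, 0.169, 0.0974, 0.0549 and 0.00609 in Control libraries 1 to 5. All Sirt1 deleted libraries lay below all Control libraries, with Sirt1 deleted 1 and Control 5 closest to each other. The same median of the 51 GTPases lay between -0.0205 and 0.0328 in Sirt1 deleted libraries and between -0.0376 and 0.0274 in Control libraries, so those ranges overlapped. Leaving out Control 1 or Control 2 lowered the count of regulators called lower to 10, and leaving out Sirt1 deleted 2 lowered it to 11. The calls over all genes, in either direction, numbered 4344 with every library, 2335 without Control 1, 2200 without Control 2 and 2711 without Sirt1 deleted 2. They numbered 3292 without Control 3, 3146 without Control 4 and 3419 without Sirt1 deleted 5, so they dropped with each of these omissions. The calls over all genes were not split by direction here. Regulators called higher numbered 1 without Control 1, and 2 without Control 2, Control 4 or Sirt1 deleted 2. GTPases called lower numbered 0 without Control 1 or Control 2, 1 without Control 3, Control 4 or Sirt1 deleted 2, and 3 without Sirt1 deleted 5. GTPases called higher numbered 2 without Control 1, Control 2, Control 4 or Sirt1 deleted 5, and 3 without Sirt1 deleted 2. Without the 3 libraries of steepest length slope (Sirt1 deleted 5, Control 1 and Control 2), limma called 0 regulators and 0 GTPases. That fit had 15 of 43 regulators and 4 of 51 GTPases at an unadjusted p under 0.05, against 3159 of all 13567 genes. In that fit 0.0221% of all genes were called. A fit with the length slope as a covariate called 0.0% of all genes, and a fit with the B cell markers called 0.00737%, with 0 regulators and 0 GTPases in each. At an unadjusted p under 0.05 the slope fit had 2 of 43 regulators and 0 of 51 GTPases, against 577 of all 13567 genes. The B cell fit had 8 of 43 regulators and 6 of 51 GTPases at that threshold, against 2452 of all 13567 genes.

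**Figure D3:**
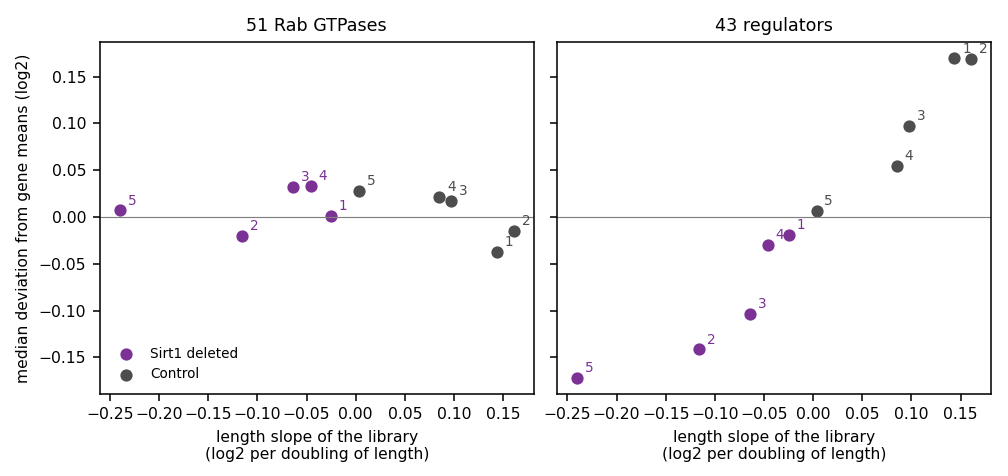
Median deviation from the gene means (log2) in each library against the library's length slope, for the GTPases on the left and the regulators on the right; numbers are library numbers. The regulators' medians rise with the slope from -0.172 in Sirt1 deleted 5 to 0.169 in Control 1 and 2, and the GTPases' medians stay between -0.0376 and 0.0328.

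Rabgap1 was the member with the largest difference. It encodes a TBC protein with GAP activity toward Rab6 in human cell and biochemical studies, and it spans chr2:37443279-37566454 on GRCm38. Its normalized counts were 31.5, 35.7, 33.0, 10.3 and 13.6 in Sirt1 deleted libraries 1 to 5, against 614, 466, 223, 37.9 and 256 in Control libraries 1 to 5. The groups did not overlap, but Control 4 lay just above the highest Sirt1 deleted library, and the Control libraries were widely spread. The means were 24.8 ± 11.9 in Sirt1 deleted and 320 ± 224 in Control libraries (SD, n = 5), so the Sirt1 deleted mean was 7.77% of the Control mean. The log2 difference was -3.31 ± 0.617 (SE), and -3.08 after the length and GC correction. Over all alternatives run it ranged from -3.95, when Control 4 was left out, to -2.30, when each library's length slope entered the fit.

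The paralogue Rabgap1l did not pass the test. It averaged 1906 ± 84.6 in Sirt1 deleted libraries and 1815 ± 106 in Control libraries (SD, n = 5 each; log2 difference 0.07, limma adjusted p = 0.347). After the length and GC correction its difference was 0.42 (adjusted p = 0.019), and 0.10 (adjusted p = 0.21) when the transcript of median length was used instead. Genes beside Rabgap1 on the chromosome were read as well. Zbtb26, 144 bases from the Rabgap1 start, averaged 465 ± 55.0 in Sirt1 deleted libraries and 568 ± 44.2 in Control libraries (-0.29, adjusted p = 0.0303), and Zbtb6, 108 bases away, averaged 505 ± 84.8 in Sirt1 deleted and 620 ± 84.3 in Control libraries (-0.30, adjusted p = 0.0802). Strbp, which overlaps Rabgap1 on the other strand, averaged 2872 ± 272 in Sirt1 deleted and 3080 ± 157 in Control libraries (-0.10, adjusted p = 0.25). Rc3h2 differed by -0.27 (adjusted p = 0.0468) and Pdcl, which encodes a phosducin-like protein, by -0.42 (adjusted p = 0.0175). Gpr21, inside Rabgap1 on the same strand, lay between 0 and 4.17 in Sirt1 deleted libraries and between 0 and 5.64 in Control libraries, and was not tested. After the correction Pdcl differed by -0.36 (adjusted p = 0.0311), Zbtb26 by -0.02 (adjusted p = 0.878) and Rc3h2 by 0.14 (adjusted p = 0.0513). Strbp passed in the opposite direction in that fit, at 0.30 (adjusted p = 0.00745).

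**Figure D4:**
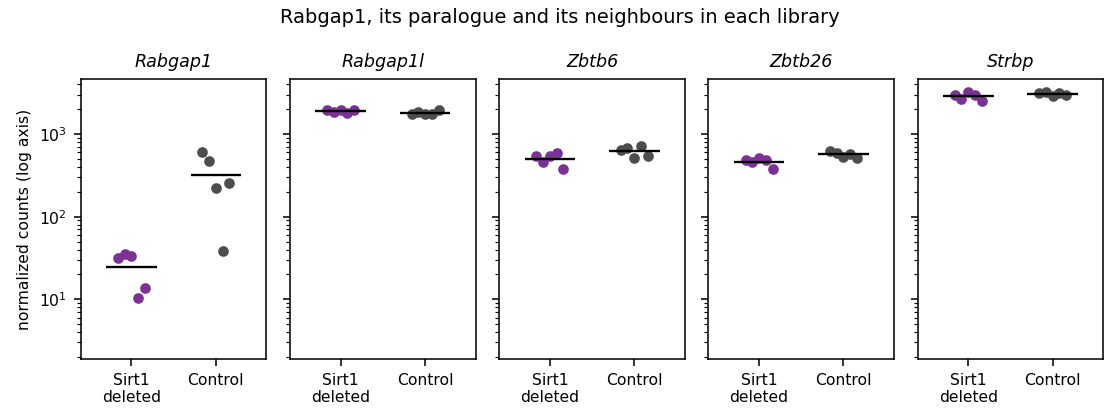
Normalized counts on a log axis in each of 5 Sirt1 deleted and 5 Control libraries for Rabgap1, its paralogue Rabgap1l and the neighbouring genes Zbtb6, Zbtb26 and Strbp; black lines are means. Rabgap1 lies between 10.3 and 35.7 in Sirt1 deleted libraries and between 37.9 and 614 in Control libraries, and the group means of the other 4 genes lie close together on this axis.

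Among the GTPases, levels per kilobase of transcript spanned 1.84 for Rab3c to 3424 for Rab7, with a median of 258. The highest were Rab7, of late endosomes, with 7260 ± 347 in Sirt1 deleted and 7523 ± 220 in Control libraries, and Rab1b, of transport out of the endoplasmic reticulum, with 6220 ± 196 in Sirt1 deleted and 5669 ± 376 in Control libraries (SD, n = 5 each). Then came Rab5c, of early endosomes, with 5732 ± 321 in Sirt1 deleted and 5199 ± 273 in Control libraries, and Rab1a with 4380 ± 362 in Sirt1 deleted and 4697 ± 125 in Control libraries. None of these 4 passed the test, with log2 differences of -0.05 for Rab7, 0.14 for Rab1b, 0.14 for Rab5c and -0.10 for Rab1a. Rab5a (-0.06), the recycling GTPase Rab11a (0.11) and Rab27a (-0.11), which docks lytic granules in cytotoxic T cells, did not pass either. The 41 GTPases that were not called lay between -0.44 and 0.44.

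Among the early endosome GTPases 1 of 9 rose (11.1%) and 2 fell (22.2%), near the 14.5% and 17.5% of all genes. Rab4b, which acts in recycling from early endosomes, had 1492, 1607, 1400, 1461 and 1829 in Sirt1 deleted libraries 1 to 5, against 1118, 1068, 1156, 1240 and 1171 in Control libraries. Every Sirt1 deleted library was above every Control library, and Rab4b rose by 0.43 ± 0.0751 (SE, adjusted p = 0.00797). Its corrected difference was 0.12 (adjusted p = 0.103) with the longest and 0.26 (adjusted p = 0.00938) with the median-length transcript. Its paralogue Rab4a had a similar difference with a wider spread, at 151 ± 44.1 in Sirt1 deleted and 109 ± 15.5 in Control libraries (SD, n = 5 each; 0.44, adjusted p = 0.0653). Rab5b fell, with 1745 ± 148 in Sirt1 deleted and 1979 ± 76.3 in Control libraries (-0.19, adjusted p = 0.0443), and so did Rab31, of transport between Golgi and endosomes, with 207 ± 12.8 in Sirt1 deleted and 244 ± 14.0 in Control libraries (-0.24, adjusted p = 0.0447). Corrected with the longest and the median-length transcript, Rab5b stood at -0.14 (adjusted p = 0.107) and -0.04 (adjusted p = 0.56), and Rab31 at -0.17 (adjusted p = 0.145) and -0.25 (adjusted p = 0.0346).

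In recycling and polarized transport, Rab8b fell and its paralogue Rab8a did not pass. Rab8b, a GTPase of outward transport to the plasma membrane, had 2333, 2143, 2599, 2625 and 1477 in Sirt1 deleted libraries, against 3423, 3198, 2950, 2942 and 2689 in Control libraries. The groups did not overlap, and Sirt1 deleted 5 was the lowest library (-0.47 ± 0.134 SE, adjusted p = 0.0209). Rab8a averaged 4172 ± 227 in Sirt1 deleted and 3814 ± 145 in Control libraries (0.13, adjusted p = 0.0705). Rab8b thus stood at 57.3%, 53.4%, 61.6%, 65.6% and 32.5% of Rab8a in Sirt1 deleted libraries, and at 92.0%, 85.0%, 76.1%, 80.2% and 66.7% of it in Control libraries. The ratio compares unequal change within each library and not which of the pair changed. The paralogue was picked after values were seen. Among the other GTPase pairs read, the ratio of Rab5b to Rab5c also did not overlap between the groups. Those of Rab4b to Rab4a, Rab6a to Rab6b and Rab11b to Rab11a did overlap. So did those of Rab1a to Rab1b, Rab2a to Rab2b and Rab5b to Rab5a. With the correction Rab8b differed by -0.23 (adjusted p = 0.0631) and Rab8a by 0.29 (adjusted p = 0.0134), with transcripts of 4733 and 4550 bases. Rab11b rose slightly, with 6434 ± 194 in Sirt1 deleted and 5867 ± 235 in Control libraries (0.13, adjusted p = 0.0433), and its corrected difference was 0.41 with the longest and 0.02 with the median-length transcript.

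The remaining called GTPases were grouped under the endoplasmic reticulum and Golgi, late endosomes and lysosomes, or regulated secretion and lysosome-related organelles. Rab6a, of retrograde Golgi transport and the GTPase linked to Rabgap1 above, had 1715, 1466, 1833, 1764 and 1231 in Sirt1 deleted libraries, against 1974, 1969, 1871, 1959 and 1932 in Control libraries. The Control libraries were closely grouped and lay above every Sirt1 deleted library (-0.29, adjusted p = 0.0329). Neither correction kept the call of Rab6a, at -0.21 (adjusted p = 0.0558) with the longest and -0.12 (adjusted p = 0.146) with the median-length transcript. Rab18, of the endoplasmic reticulum and lipid droplets, averaged 2206 ± 431 in Sirt1 deleted and 2778 ± 177 in Control libraries (-0.35, adjusted p = 0.0343). Its corrected difference was -0.01 (adjusted p = 0.935) with the longest and -0.34 (adjusted p = 0.0265) with the median-length transcript. Rab29, a partner of the kinase LRRK2, averaged 583 ± 47.7 in Sirt1 deleted and 468 ± 38.8 in Control libraries without overlap (0.32, adjusted p = 0.0143). Rab19 averaged 117 ± 8.07 in Sirt1 deleted and 91.6 ± 8.80 in Control libraries without overlap (0.35, adjusted p = 0.0278). Rab24, tied to autophagy, averaged 1699 ± 213 in Sirt1 deleted and 1427 ± 110 in Control libraries (0.25, adjusted p = 0.0399). Rab29, Rab19 and Rab24 passed the correction with the median-length transcript, at 0.24 (adjusted p = 0.023), 0.32 (adjusted p = 0.0359) and 0.23 (adjusted p = 0.045). With the longest transcript they were at 0.13 (adjusted p = 0.171), 0.22 (adjusted p = 0.164) and -0.05 (adjusted p = 0.542). By compartment the counts were small, and over all genes 14.5% rose and 17.5% fell. They were 1 rising (8.33%) and 2 falling (16.7%) of 12 GTPases of the endoplasmic reticulum and Golgi, 1 rising and 1 falling of 11 in recycling (9.09% each), 1 rising (16.7%) and 0 falling of 6 in late endosomes, 1 rising (11.1%) and 0 falling of 9 in regulated secretion, and 0 called of 4 others. Groups did not overlap for 8 GTPases, 3 above and 5 below, where 8.28% of all genes were above and 8.18% below.

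The TBC genes called lower covered a wide range of levels. Tbc1d22b had 2728, 2691, 2428, 2658 and 2493 in Sirt1 deleted libraries, against 3245, 3081, 3140, 2945 and 2829 in Control libraries. It did not overlap, and its difference was -0.23 (adjusted p = 0.0121) and -0.22 (adjusted p = 0.0096) after the correction, or -0.14 (adjusted p = 0.0233) with the median-length transcript. Tbc1d14, which limits the formation of autophagosomes in human cells, averaged 2186 ± 205 in Sirt1 deleted and 2701 ± 186 in Control libraries (-0.31, adjusted p = 0.0116), also without overlap. Corrected, Tbc1d14 stood at -0.13 (adjusted p = 0.0722) with the longest and -0.22 (adjusted p = 0.0196) with the median-length transcript. Tbc1d15, a Rab7 GAP of human mitochondria and lysosomes, averaged 1711 ± 231 in Sirt1 deleted and 2185 ± 179 in Control libraries (-0.36, adjusted p = 0.0147). Its corrected difference was -0.21 (adjusted p = 0.0375) with the longest and -0.12 (adjusted p = 0.116) with the median-length transcript. Tbc1d13, a Rab35 GAP, averaged 2131 ± 332 in Sirt1 deleted and 2654 ± 175 in Control libraries (-0.33, adjusted p = 0.025, and -0.33 corrected). Tbc1d2b averaged 2227 ± 275 in Sirt1 deleted and 2800 ± 136 in Control libraries (-0.34, adjusted p = 0.0109, and -0.12 corrected).

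At low levels, Tbc1d16 averaged 17.8 ± 3.45 in Sirt1 deleted and 28.2 ± 3.20 in Control libraries (-0.65, adjusted p = 0.0237), with corrected differences of -0.43 (adjusted p = 0.131) with the longest and -0.69 (adjusted p = 0.0195) with the median-length transcript. Tbc1d9 averaged 47.9 ± 8.70 in Sirt1 deleted and 68.6 ± 6.64 in Control libraries (-0.52, adjusted p = 0.0211). Its corrected difference was -0.31 (adjusted p = 0.157) with the longest and -0.36 (adjusted p = 0.0798) with the median-length transcript. Tbc1d1 (-0.25, adjusted p = 0.0466) and Tbc1d4 (-0.30, adjusted p = 0.0389), targets of the kinase AKT in the control of glucose transporter traffic, also fell, with corrected differences of -0.003 and -0.02. Tbc1d5 (-0.25), which binds the retromer, Tbc1d8b (-0.55), Tbc1d31 (-0.19) and Tbc1d32 (-0.31), the last with a role in cilia, completed the TBC genes called lower. Corrected with the longest transcript, these 4 genes stood at -0.02, -0.29, -0.11 and 0.05 (adjusted p = 0.784, 0.148, 0.195 and 0.653). With the median-length transcript only Tbc1d31 among them passed, at -0.18 (adjusted p = 0.0495). Tbc1d7, a subunit of the tuberous sclerosis complex that restrains mTORC1, rose, with 610 ± 78.6 in Sirt1 deleted and 491 ± 51.7 in Control libraries (0.31, adjusted p = 0.0308), with corrected differences of 0.12 (adjusted p = 0.243) with the longest and 0.26 (adjusted p = 0.0357) with the median-length transcript. Tbc1d17 rose with 1266 ± 116 in Sirt1 deleted and 1059 ± 76.3 in Control libraries (0.25, adjusted p = 0.0237). Its corrected difference was 0.52 with its longest transcript of 8750 bases and 0.07 with its median-length transcript of 486 bases. Tbc1d10c, the calcineurin inhibitor carabin of T cells and the TBC gene of highest level per kilobase (2321), averaged 4908 ± 606 in Sirt1 deleted and 4356 ± 225 in Control libraries and did not pass (0.16, adjusted p = 0.122). The 14 TBC genes that were not called lay between -0.23 and 0.17. Groups did not overlap for 6 of the 30 TBC genes, all below and Rabgap1 among them, where 8.28% of all genes were above and 8.18% below.

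The DENN genes held the steepest called falls after Rabgap1 and Tbc1d16. Dennd4a, an exchange factor for Rab10 in human studies, had 6345, 6156, 6863, 7907 and 4988 in Sirt1 deleted libraries, against 10623, 10056, 9138, 9474 and 8036 in Control libraries. All Sirt1 deleted libraries lay below all Control libraries, and Dennd4a fell by 0.56 on the log2 scale (SE 0.107, adjusted p = 0.00797). Its corrected difference was -0.18 (adjusted p = 0.0488) with its longest transcript of 8645 bases. With its median-length transcript of 643 bases it was -0.58 (adjusted p = 0.00927). Dennd4c, of the same family, had 1753, 1486, 1716, 1770 and 1043 in Sirt1 deleted libraries, against 2566, 2595, 2435, 2154 and 1936 in Control libraries (-0.61, adjusted p = 0.00999, and -0.24 corrected, adjusted p = 0.0413), again without overlap. Their substrate Rab10 averaged 4340 ± 526 in Sirt1 deleted and 4994 ± 261 in Control libraries and did not pass (-0.21, adjusted p = 0.0605).

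The Dennd1 genes encode the connecdenns, exchange factors for Rab35 in endosomal recycling. Dennd1a had 1664, 1145, 1427, 1468 and 1206 in Sirt1 deleted libraries, against 1733, 1840, 1780, 1754 and 1796 in Control libraries, without overlap (-0.38, adjusted p = 0.0112, and -0.31 corrected, adjusted p = 0.0275, or -0.50 with the median-length transcript, adjusted p = 0.00972). Dennd1b averaged 752 ± 150 in Sirt1 deleted and 1128 ± 167 in Control libraries (-0.60, adjusted p = 0.0119, and -0.22 corrected, adjusted p = 0.0704). Dennd1c went the other way, with 1068, 1012, 976, 868 and 1341 in Sirt1 deleted libraries, against 774, 813, 826, 843 and 840 in Control libraries. Its lowest Sirt1 deleted library was still above every Control library (0.35, adjusted p = 0.0182, and 0.27 corrected, adjusted p = 0.0411). Rab35 itself averaged 3123 ± 200 in Sirt1 deleted and 3200 ± 80.9 in Control libraries (-0.04, adjusted p = 0.613). The longest transcript of Dennd1c has 2521 bases, against 4342 for Dennd1a and 8206 for Dennd1b.

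Dennd6b rose and Dennd6a fell. Dennd6b had 1049, 1120, 1012, 981 and 1372 in Sirt1 deleted libraries, against 784, 810, 861, 896 and 860 in Control libraries, without overlap (0.38, adjusted p = 0.0102, and 0.49 corrected, adjusted p = 0.0094). Dennd6a, an exchange factor for Rab14 in human cells, averaged 2293 ± 339 in Sirt1 deleted and 2872 ± 226 in Control libraries (-0.33, adjusted p = 0.0226), and its corrected difference was 0.003 with the longest and -0.20 (adjusted p = 0.0518) with the median-length transcript. Rab14 averaged 3036 ± 440 in Sirt1 deleted and 3471 ± 162 in Control libraries (-0.21, adjusted p = 0.0965). Dennd5a averaged 260 ± 39.2 in Sirt1 deleted and 362 ± 33.4 in Control libraries without overlap (-0.49, adjusted p = 0.0108, and -0.30 corrected), and Dennd3, an exchange factor for Rab12, fell as well (-0.26, adjusted p = 0.0287, and -0.11 corrected). Dennd2d, of highest level per kilobase in the family (1573), averaged 6264 ± 249 in Sirt1 deleted and 6476 ± 143 in Control libraries and did not pass (-0.05). Groups did not overlap for 6 of the 13 DENN genes, 2 above (15.4%) and 4 below (30.8%), where 8.28% of all genes were above and 8.18% below.

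**Figure D5:**
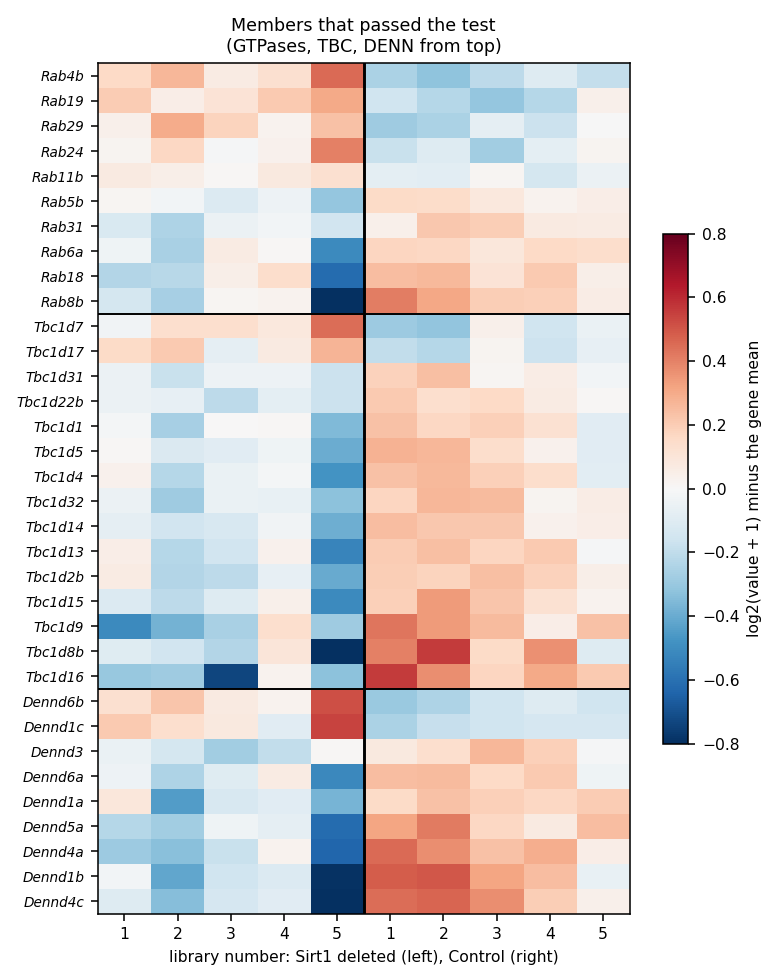
Deviation of log2(value + 1) from the gene mean in each library for the 34 called members other than Rabgap1, with Sirt1 deleted libraries 1 to 5 left of the line and Control libraries 1 to 5 right of it; colours end at -0.8 and 0.8. The cell of Rab8b in Sirt1 deleted 5, at 1477 normalized counts, is among the deepest.

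Other genes of the Rab cycle were read from a list of 90, of which 86 were in the table and 85 tested. Of these, 25 were called lower (29.4%) and 5 higher (5.88%), with a median of -0.15, where 17.5% of all genes were lower and 14.5% higher. The corrected fit called 7 lower (8.24%) and 2 higher (2.35%) with a median of -0.005, where 6.14% of all genes were lower and 8.49% higher. The 30 calls became 16 without Control 1, 15 without Control 2 and 19 without Control 4. Over all genes, 4344 calls became 2335, 2200 and 3146 with those omissions. Partner calls became 38 without Control 5 and 39 without Sirt1 deleted 1, where all genes had 4712 and 4600. Among 8 genes of lipid attachment and extraction, the escort proteins Chm, with 551 ± 85.0 in Sirt1 deleted and 787 ± 60.8 in Control libraries (-0.52, adjusted p = 0.00855), and Chml, with 975 ± 161 in Sirt1 deleted and 1438 ± 189 in Control libraries (-0.57, adjusted p = 0.00872), fell. Rabggtb, the catalytic subunit of the transferase that adds the lipid, rose, with 2544 ± 160 in Sirt1 deleted and 2240 ± 138 in Control libraries (0.18, adjusted p = 0.036), and so did Rabac1 (0.31, adjusted p = 0.0297). Neither rise passed after the correction, with Rabggtb at 0.08 (adjusted p = 0.283) and Rabac1 at -0.06 (adjusted p = 0.544). Chm (-0.26, adjusted p = 0.0159) and Chml (-0.21, adjusted p = 0.0297) still passed. Of 10 other GAP genes, 4 fell and 0 rose (2 and 0 in the corrected fit), with Usp6nl at 746 ± 121 in Sirt1 deleted and 1158 ± 124 in Control libraries (-0.64, adjusted p = 0.00797). Of 25 other exchange factor genes, 7 fell and 3 rose, and 1 fell and 1 rose in the corrected fit. Ric1, of the Rab6 exchange complex, had 1490 ± 285 in Sirt1 deleted and 2328 ± 305 in Control libraries (-0.66, adjusted p = 0.00851, and -0.32 corrected), and Gapvd1, a Rab5 exchange factor, had 4339 ± 570 in Sirt1 deleted and 5976 ± 511 in Control libraries (-0.47, adjusted p = 0.0084, and -0.12 corrected). Of 42 effector genes, 12 fell (28.6%) and 0 rose, against 17.5% and 14.5% of all genes. In the corrected fit 2 effector genes fell (4.76%) and 0 rose, against 6.14% and 8.49% of all genes. The largest difference was that of Rab11fip4, an effector of Rab11, with 280 ± 77.5 in Sirt1 deleted and 535 ± 93.0 in Control libraries (-0.96, adjusted p = 0.00797, and -0.70 corrected, adjusted p = 0.01). Eea1, the endosomal tether recruited by Rab5, had 588 ± 103 in Sirt1 deleted and 801 ± 115 in Control libraries (-0.45, adjusted p = 0.0226, and -0.08 corrected).

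At the edge of the level filter, Rab36 passed with 6 libraries at 10 or more, and Rab25 and Rab42 passed with 7. Rab27b failed with 3 such libraries, at 9.57, 7.07, 15.8, 8.88 and 8.93 in Sirt1 deleted libraries and 10.4, 13.6, 8.20, 7.22 and 8.19 in Control libraries, and Rab9b failed with 3. The other genes below the filter were Dennd2a, Rab15, Rab26, Rab39, Rab39b, Rab3b, Rab40b, Tbc1d22bos, which names an antisense transcript, and Tbc1d30. No member passed through libraries of 1 group alone.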

How the data were processed

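RNA of 10 leukemic spleens was sequenced from strand-specific libraries, per the labels' protocols. Per the submitters' processing notes, kallisto 0.44.0 and DESeq were used with mm10; the annotation and whether counting used strand are not given in the sources used here. The deposited signal is the authors' DESeq-normalized counts per gene, which are not whole numbers, so count models were not fitted and estimated depths come from the step between low values. All 10 columns had a sample and 0 were left out.

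Genes with 10 or more in at least 5 libraries (13567) entered limma-trend (limma 3.58.1, R 4.3.3) as log2(value + 1), with no covariate. Tests were two-sided, with Benjamini-Hochberg adjustment over all tested genes and a threshold of 0.05. Sirt1 was tested by exact permutation. Lengths are of the longest protein-coding transcript in GENCODE M21 on GRCm38, known for 12397 tested genes. For the length and GC correction, each library was fitted with natural splines (5 degrees of freedom each), which were subtracted. The TMM factors came from the published formula. Steps were tested on simulated data. Figures used Python 3.11.15 and matplotlib 3.10.9.

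Members and gene lists were chosen with earlier results of these data known. Named genes are Rabgap1 and Rabgap1l, called GTPases, TBC and DENN genes with the smallest p (8, 8 and 6), the 4 GTPases of highest level per kilobase, 5 textbook compartment markers and genes within 100 kb of Rabgap1; other members and partners were named after their values were seen. Alternatives were pseudocounts of 0.5 and 5, no filter, a minimum of 50, TMM, quantile normalization, the correction, the length slope or B cell markers as covariates, omission of the 3 steepest libraries, and each library left out.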

Additional observations from a re-analysis of the deposited data

Results flagged for a closer look

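Tbc1d13 in Control library 5 stood apart as the lowest of its group, at 2352 normalized counts, where the other 4 Control libraries lay between 2669 and 2793. The gap to the nearest library was 0.719 of the range of the group, over the limit of 0.71 for 5 libraries. Of 130 gene and group combinations examined, 1 was flagged, and chance alone flags about 1 in 20.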

How the results depend on the processing

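No paired analysis was possible because the labels give no replicate number that is shared by the groups. Pseudocounts of 0.5 and 5, a minimum of 50 and TMM moved no count past 1.5 times. Without the low-value filter 3 GTPases were called lower, and with quantile normalization 8 were higher and 3 lower. Length and GC correction gave 3 GTPases higher and 0 lower, 8 regulators lower and 9 partners called, medians of -0.061 (regulators) and a regulator minus GTPase gap of -0.051, where the deposited values gave -0.23. With the transcript of median length, an alternative chosen after seeing the data, 11 regulators were lower, with a median of -0.0915 and a gap of -0.115. With the length slope, the B cell markers or omission of the 3 steepest libraries, limma called 0 GTPases, 0 regulators and 0 partners. At an unadjusted p under 0.05 the slope fit had 0 GTPases, 2 regulators and 3 partners, the omission 4, 15 and 18, and the B cell fit 6, 8 and 19. At that threshold the slope fit had 577 of all 13567 genes, the omission 3159 and the B cell fit 2452. The GTPase median was 0.027 with quantile normalization and 0.060 with the slope; the regulator median was 0.0010 with the slope and -0.13 with the omission, and the gap -0.059 and -0.118. The Sirt1 log2 difference was -0.00057 with the slope, -0.27 with the omission and -0.23 with the B cell markers, none past its threshold, and -0.25 with the correction and -0.22 with the median-length transcript, both past it (exact permutation p = 0.00794); with 4 against 3 libraries the exact permutation p was 0.0571, the smallest that design allows. Leaving out each library gave 2 to 6 GTPases higher and 0 to 6 lower, 1 to 6 regulators higher and 10 to 22 lower, 15 to 39 partners called, Rabgap1 at -3.95 to -2.96, Sirt1 at -0.50 to -0.35, medians of -0.021 to 0.029 (GTPases) and -0.26 to -0.18 (regulators), and a gap of -0.27 to -0.19. With the same omissions, the calls over all genes ran from 2200 without Control 2 to 4712 without Control 5. Of the 34 called members besides Rabgap1, 11 kept their call with the correction, 18 with the median-length transcript and 0 with the slope, the omission or the B cell markers, and 31, 33, 18, 34 and 34 kept their direction. The causes were not tested. Signs turned, with these log2 differences. In the slope fit they were Rabgap1l -0.0082, Rab8b 0.14, Rab6a 0.059, Rab18 0.099, Rab24 -0.073, Tbc1d15 0.046, Dennd4c 0.063, Dennd1b 0.12, Rab7 0.049, Rab5c -0.0058, Rab1a 0.022, Rab5a 0.11, Rab27a 0.027, Pdcl 0.079, Rc3h2 0.13, Zbtb6 0.18, Zbtb26 0.055, Strbp 0.13, Dennd6a 0.11, Rab5b 0.033, Tbc1d1 0.11, Tbc1d13 0.12, Tbc1d31 0.0088, Tbc1d4 0.16, Tbc1d5 0.15, Tbc1d7 -0.060, Tbc1d8b 0.28, Rab8a -0.0091, Rab35 0.078, Rab10 0.091, Rab14 0.14, Tbc1d10c -0.085 and Eea1 0.16. In the corrected fit they were Rab24 -0.047, Rab1b -0.058, Rc3h2 0.14, Strbp 0.30, Dennd6a 0.0031, Tbc1d32 0.055, Dennd2d 0.096 and Rabac1 -0.061, and with the median-length transcript Rab5c -0.0054, Rab1a 0.030, Rab5a 0.046, Rab27a 0.034, Rc3h2 0.13, Tbc1d32 0.050 and Rab35 0.0096. With quantile normalization they were Rab7 0.013, Rab35 0.027 and Dennd2d 0.014, and with B cell markers Rab7 0.011, Rab5a 0.073, Strbp 0.0066 and Rab35 0.032. Rab35 ranged from -0.056 to 0.0028 when each library was left out, with the positive value without Sirt1 deleted 5. The estimated depth, 21200000 to 44200000 reads, limits the genes near 10 counts most.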
